A study of Mus musculus with 4 samples.

Results

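Genes of antigen presentation by the major histocompatibility complex (MHC) were examined in sorted mouse fetal liver progenitors that lacked Rcor1 and in their controls. The set was given by name and held 9 genes of the 35927 gene rows with counts: B2m, H2-K1, H2-D1, H2-Ab1, Tap1, Tap2, Tapbp, Nlrc5 and Cd74. Each symbol matched a single row. The cells came from C57BL/6 embryos at E13.5 and had been sorted by flow cytometry as CD71+ and TER119-, a gate for erythroid progenitors. The control group pooled Rcor1+/+ and Rcor1+/- embryos, and the mutant group was Rcor1-/-. Rcor1 encodes CoREST, a scaffold for histone demethylase and deacetylase enzymes. Each group had 2 mRNA sequencing libraries, and each library pooled RNA from several livers. No label says whether the pools of a group came from separate litters, so p-values measure only the spread between these libraries. In such bulk samples, fewer cells of a type and less RNA per cell cannot be told apart.

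Class I MHC molecules show peptides made inside the cell to CD8 T cells and natural killer cells. They consist of a heavy chain (H2-K1, H2-D1) bound to the light chain beta-2 microglobulin (B2m). Peptides cut by the proteasome are carried into the endoplasmic reticulum by the transporter formed by Tap1 and Tap2, and tapasin (Tapbp) holds the transporter beside the empty heavy chain. Class II molecules (H2-Ab1 with its alpha chain partner H2-Aa) show peptides from endosomes, and the invariant chain Cd74 guards their groove on the way there. Nlrc5 is the transactivator of class I promoters, as Ciita is of class II promoters.

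RefSeq promoter sequences (GRCm38.p6; 250 bases before the start and 50 from it) were found for 5 of the 9 genes and are shown because these letters are what class I regulators are known to read. Capitals mark matches on either strand to 4 motifs. They are ATTGG, the core of the Y box bound by NF-Y, TGACG, a CRE-like core, and AANNGAAA, the interferon regulatory factor consensus. The last is the class I kappaB site, GGGGATTCCCC, whose letters were taken from the H2-K1 promoter itself. The first 3 are B2m (chr2:122147437-122147736, + strand), H2-K1 (chr17:34000298-34000597, - strand) and H2-D1 (chr17:35262844-35263143, + strand).
B2m: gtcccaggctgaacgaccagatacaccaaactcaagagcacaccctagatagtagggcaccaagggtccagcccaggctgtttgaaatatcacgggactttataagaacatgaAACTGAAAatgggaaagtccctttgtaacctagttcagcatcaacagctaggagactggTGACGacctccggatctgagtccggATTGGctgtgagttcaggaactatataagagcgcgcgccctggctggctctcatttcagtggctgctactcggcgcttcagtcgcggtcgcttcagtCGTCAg
H2-K1: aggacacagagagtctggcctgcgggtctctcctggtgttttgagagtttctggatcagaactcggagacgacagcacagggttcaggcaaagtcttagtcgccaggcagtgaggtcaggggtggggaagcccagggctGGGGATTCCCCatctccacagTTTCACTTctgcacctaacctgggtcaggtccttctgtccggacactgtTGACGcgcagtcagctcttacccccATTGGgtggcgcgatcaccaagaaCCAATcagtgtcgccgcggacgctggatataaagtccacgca
H2-D1: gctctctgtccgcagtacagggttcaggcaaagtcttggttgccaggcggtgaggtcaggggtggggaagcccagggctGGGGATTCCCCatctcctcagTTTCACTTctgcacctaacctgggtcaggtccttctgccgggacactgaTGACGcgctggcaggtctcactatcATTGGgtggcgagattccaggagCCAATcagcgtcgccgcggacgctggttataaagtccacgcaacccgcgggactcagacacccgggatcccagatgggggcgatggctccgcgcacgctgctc

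The other promoters are those of Tap1 (chr17:34187306-34187605, + strand), which lies head to head with the immunoproteasome gene Psmb9, and Tapbp (chr17:33919228-33919527, + strand).
Tap1: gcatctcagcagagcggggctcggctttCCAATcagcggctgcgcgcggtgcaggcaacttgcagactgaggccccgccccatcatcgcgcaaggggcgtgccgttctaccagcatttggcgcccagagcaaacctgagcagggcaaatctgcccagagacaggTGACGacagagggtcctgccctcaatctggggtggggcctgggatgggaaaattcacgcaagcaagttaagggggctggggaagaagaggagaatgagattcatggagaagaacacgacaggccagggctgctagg
Tapbp: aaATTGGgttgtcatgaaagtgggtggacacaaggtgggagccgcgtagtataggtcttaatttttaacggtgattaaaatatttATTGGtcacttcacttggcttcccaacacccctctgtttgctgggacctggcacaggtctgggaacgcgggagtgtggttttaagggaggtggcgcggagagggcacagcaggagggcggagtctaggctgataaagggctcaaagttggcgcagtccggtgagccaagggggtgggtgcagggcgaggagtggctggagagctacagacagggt

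The light chain promoter and both heavy chain promoters held AANNGAAA, TGACG and ATTGG in that order on the way to the start. The AANNGAAA match was inverted in H2-K1 and H2-D1 (TTTCACTT) but not in B2m (AACTGAAA). In B2m they began at -137, -78 and -53, counted back from the start. In H2-D1 they began at -150, -101 and -76, with GGGGATTCCCC at -171 and a second, inverted Y box core (CCAAT) at -53. H2-K1 had the same 5 matches in the same order, at -111 (GGGGATTCCCC), -90, -41, -16 and 9. These positions are counted from the first of 2 promoter entries of H2-K1. The spacing between the matches was nearly that in H2-D1, so their distance to the start depends on the start used. B2m had a further, inverted TGACG at 45. The H2-K1 and H2-D1 promoters were identical at 88.3% of 239 aligned bases. Tap1 held an inverted Y box core at -222 and TGACG at -86, and Tapbp held ATTGG at -248 and -165; neither window held the other motifs. Of 32544 promoter sequences of this length, 37.4% held ATTGG, 20.9% TGACG, 23.9% AANNGAAA and 0.0307% (10 sequences, of which 2 belong to H2-K1) GGGGATTCCCC. Matches to the shorter patterns are common. The kappaB letters are a longer exact string taken from H2-K1, so their match there was fixed in advance, and their rarity cannot be set against that of the shorter patterns. No match is a measurement of binding.

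Library totals ran from 15053229 to 26892375 counts. Rcor1 itself was at 160 and 175 CPM in the control libraries and at 77.9 and 78.9 CPM in the mutant libraries; the counts do not show which exons the remaining reads cover. CPM here are counts scaled by library total and by TMM factors, which correct for differences in library composition. The labelled cell type was checked by 9 erythroid markers. All were abundant, led by the band 3 gene Slc4a1 in controls and the transferrin receptor gene Tfrc in mutants. In the test described below, 8 of them, all but Kit, fell in the mutant, where 29.2% of all tested genes were lower. Together they took 0.641% and 0.657% of control counts and 0.477% and 0.459% of mutant counts. These percents are of library totals and leave out the TMM factors.

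Of the 9 genes, 7 were abundant enough to test; each held at least 94 counts in every library. With edgeR's quasi-likelihood test and Benjamini-Hochberg adjustment over 13140 genes, 4 rose in the mutant (Tap1, H2-Ab1, B2m and H2-D1), 1 fell (Tapbp) and 2 did not pass (H2-K1 and Tap2). Of all tested genes 57.5% passed, 28.3% higher and 29.2% lower. A call in itself is therefore common here, and 5 calls among 7 genes are close to that background. The same shares are the background for every count of calls in the lists and markers below. The groups did not overlap in any of the 7, against 77.9% of all tested genes. The median log2 fold change of mutant over control was 0.25 for the 7 genes and 0.01 for all. When only library totals were used for scaling, that median of all genes moved to 0.15 and the calls over all genes became 5112 higher and 2553 lower, against 3723 and 3835. Changes below are on the TMM scale.

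**Figure D1:**
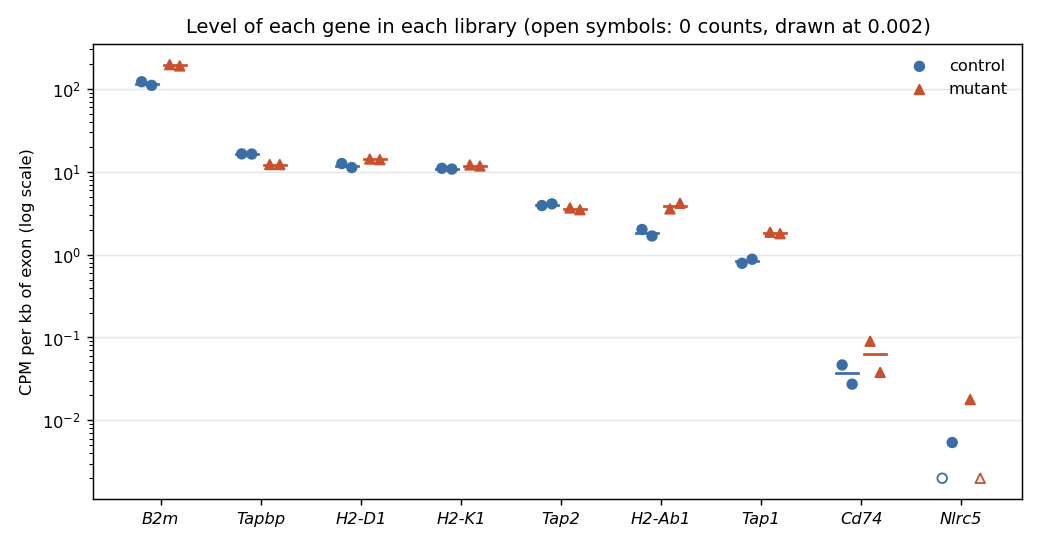
Level of each of the 9 genes in each library, in CPM per kilobase of exon on a log axis; circles are control and triangles mutant libraries, bars are group means, and open symbols are libraries with 0 counts. B2m stands at 110 to 122 in controls and 189 to 196 in mutants, far above the other genes, and Cd74 and Nlrc5 lie below 0.1 in every library.

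Per kilobase of exon, the order of the levels in controls was B2m at 116 ± 8.19 CPM per kb (SD, n = 2 for these and all following levels), Tapbp at 16.4 ± 0.0563, H2-D1 at 11.9 ± 0.931 and H2-K1 at 10.9 ± 0.168. Tap2 followed at 4.00 ± 0.134, H2-Ab1 at 1.84 ± 0.234 and Tap1 at 0.832 ± 0.0663. Cd74 was at 0.0369 ± 0.0136 and Nlrc5 at 0.00270 ± 0.00382. In controls the H2-D1 libraries lay just above those of H2-K1 without overlapping them, the lower at 11.2. These neighbours thus differed by little beyond their spread. That order depends on the exon lengths used, 2579 bases for H2-D1 and 2938 for H2-K1. In CPM alone, controls had 32.0 ± 0.494 for H2-K1 and 30.7 ± 2.40 for H2-D1. The longest coding transcripts are ordered the other way, at 2102 bases for H2-D1 and 1619 for H2-K1. In mutants B2m was at 193 ± 4.98, H2-D1 at 14.1 ± 0.161, Tapbp at 12.22 ± 0.00506 and H2-K1 at 11.9 ± 0.264. Tap1 was at 1.83 ± 0.0521, Cd74 at 0.0640 ± 0.0369 and Nlrc5 at 0.00890 ± 0.0126. There Tapbp and H2-K1 stood side by side, their library values lying between 11.7 and 12.2, as did H2-Ab1 (3.86 ± 0.425) and Tap2 (3.57 ± 0.123), whose libraries overlapped. Exon lengths are those of a later annotation than the one used for counting, and they join the exons of all transcripts of a gene. Levels per kilobase are therefore approximate, and which genes stand side by side depends on the lengths used.

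B2m, the light chain shared by all classical class I molecules, was the most abundant of the set and rose. Its control libraries were at 105 and 94.9 CPM and its mutant libraries at 169 and 163 CPM. Both mutant libraries stood well above both controls. The change was 1.66-fold, a log2 fold change of 0.73 ± 0.06 (SE; adjusted p = 7.66e-09).

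The heavy chain genes moved little. H2-K1 stood at 32.3 and 31.6 CPM in the controls, against 35.5 and 34.4 CPM without Rcor1, a log2 fold change of 0.13 ± 0.08 that did not pass (adjusted p = 0.170). H2-D1 stood at 32.4 and 29.0 CPM in the controls, against 36.7 and 36.1 CPM without Rcor1, a log2 fold change of 0.25 ± 0.08 (adjusted p = 0.0168). The gap between the mutant libraries and the higher control library was small for both genes, and the call of H2-D1 was not stable. It was lost with DESeq2 (adjusted p = 0.0741), without control replicate 2 (0.16, adjusted p = 0.216), without mutant replicate 1 (adjusted p = 0.0757) and without mutant replicate 2 (adjusted p = 0.0509), in a range that began at 0.000584. H2-K1 passed under upper quartile scaling (0.21, adjusted p = 0.0332) and with library totals alone (0.27, adjusted p = 0.00764); over the alternatives its adjusted p ran up to 0.475.

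The division of reads between class I copies is uncertain. The longest coding transcripts of H2-K1 and H2-D1 were identical at 87.5% of 1577 aligned bases. Of all stretches of 36 bases in the H2-K1 transcript, 17.9% also occurred in another gene, each of these in at least 1 further H2 gene, with H2-D1 the most frequent partner at 13.7%. For H2-D1 the share was 23.3%, and for B2m it was 0. Reads of this kind may have been dropped or divided; how multiply mapped reads were handled is not stated by the sources at hand. When the 10 rows of H2-K1, H2-D1, H2-K2, H2-Bl and the H2-Q genes were added together, H2-K1 and H2-D1 made up 94.7% of their counts. The sum stood at 66.1 ± 3.20 CPM, against 75.6 ± 1.04 CPM without Rcor1, a log2 fold change of 0.20 ± 0.06 (adjusted p = 0.0136). That call too was lost without control replicate 2 (adjusted p = 0.122), without mutant replicate 1 (adjusted p = 0.103), with DESeq2 (adjusted p = 0.0551) and with no filter beyond 1 count (adjusted p = 0.0543), in a range that began at 0.000172.

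The balance of light to heavy chain transcripts was compared within each library, and the groups did not overlap. B2m counts were 1.62 and 1.57 times the summed H2-K1 and H2-D1 counts in the control libraries, and 2.34 and 2.31 times in the mutant libraries. The H2-K1 to H2-D1 ratio stayed near 1, at 0.999 and 1.09 in controls and 0.967 and 0.952 in mutants. These ratios do not depend on scaling between libraries; with 2 against 2 libraries an exact two-sided permutation test cannot go below p = 0.333, so none is given.

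Of the peptide transporter subunits, which work as a pair, Tap1 rose and Tap2 did not pass. Tap1 stood at 4.30 and 4.81 CPM in the controls, against 10.2 and 9.80 CPM without Rcor1, a 2.20-fold rise (log2 fold change 1.14 ± 0.14, adjusted p = 2.12e-06). Tap2 stood at 14.8 and 15.5 CPM in the controls, against 13.8 and 13.2 CPM without Rcor1, a log2 fold change of -0.16 ± 0.10 that did not pass (adjusted p = 0.190). Tap1 was thus higher in both mutant libraries, and Tap2 was slightly below both controls without passing the test. The ratio of Tap1 to Tap2 counts went from 0.291 and 0.311 in the control libraries to 0.738 and 0.744 in the mutant libraries, with no overlap; the difference between the subunits' changes was not tested further. The Tap1 transcript shared 6.07% of its stretches of 36 bases with the neighbouring Psmb9, and Tap2 shared 11.5% with Gm15821, so some of their reads may be divided too.

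Tapbp, the bridge between transporter and heavy chain, fell. The controls stood at 59.7 and 59.4 CPM, against 44.32 and 44.35 CPM without Rcor1, a log2 fold change of -0.43 ± 0.07 (adjusted p = 5.58e-05). The replicates were close together in both groups. In the Tapbp transcript 22.9% of stretches of 36 bases also occurred in other genes, mostly in Gm19412 (20.4%), so part of its reads may be shared as well.

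H2-Ab1, the beta chain of the class II molecule I-A, rose 2.06-fold. The controls stood at 5.16 and 4.31 CPM, against 9.14 and 10.7 CPM without Rcor1 (log2 fold change 1.04 ± 0.15, adjusted p = 1.19e-05). The other parts of the class II molecule were nearly absent. H2-Aa, the alpha chain without which the beta chain forms no dimer, reached 0 and 1 counts in the controls, against 3 and 5 without Rcor1, a ratio per library total of 9.88 (95% exact counting interval 1.32 to 439). Cd74, which is abundant in dendritic cells and B cells, reached 2 and 1 counts in the controls, against 4 and 1 without Rcor1. For Cd74 this ratio was 2.06 (95% exact counting interval 0.401 to 13.3), so no difference was detectable at this depth. Counts of Ciita were 0 and 2, against 1 and 0. In the H2-Ab1 transcript 0.170% of stretches of 36 bases occurred elsewhere, all in H2-Eb1, a gene with at most 4 counts in any library.

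Nlrc5, the class I transactivator, was hardly detected. Its counts were 0 and 1 in the controls, against 4 and 0 without Rcor1, which gives a ratio of 4.94 (95% exact counting interval 0.489 to 243). The groups overlapped, and no difference was detectable at this depth. Intervals here and above cover counting error only.

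**Figure D2:**
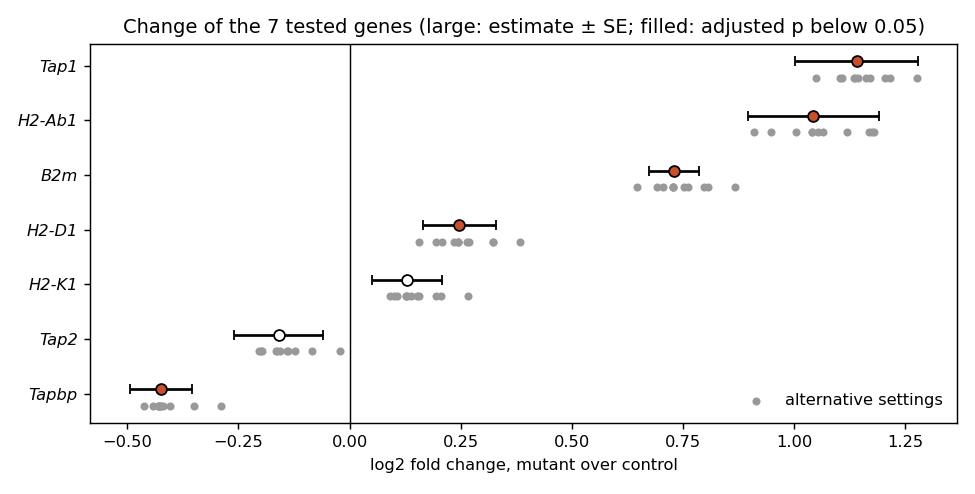
Log2 fold change of mutant over control for the 7 tested genes; large circles are the estimates with their SE, filled where adjusted p was below 0.05, and small grey circles are the estimates under each alternative setting. The estimates of B2m run from 0.65 to 0.87 and those of Tapbp from -0.46 to -0.29, while H2-K1 runs from 0.09 to 0.27.

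The authors' deposited table gave 7 of the 9 genes. In the authors' deposited table the log2 fold change was 1.28 for Tap1, 1.17 for H2-Ab1, 0.87 for B2m, 0.38 for H2-D1, 0.27 for H2-K1, -0.02 for Tap2 and -0.29 for Tapbp. All but Tap2 had an adjusted p below 0.05 in the authors' deposited table, which lists H2-K1 at adjusted p = 0.00824. With library totals alone, the edgeR fit gave 1.28, 1.18, 0.87, 0.38, 0.27, -0.02 and -0.29 for these genes in the same order, each within 0.01 of that table as rounded, and H2-K1 passed.

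Other genes of peptide supply and loading split in direction. Of 16 tested genes of the list (B2m, Tap1, Tap2 and Tapbp included), 4 rose, 4 fell and 8 did not pass, with a median of -0.12. The steepest rise was that of Psmb8, an immunoproteasome subunit encoded next to Tap1. Its counts were 27 and 18, against 152 and 83, or 0.941 ± 0.163 CPM against 5.51 ± 0.327 CPM (log2 fold change 2.54 ± 0.22, adjusted p = 3.26e-08). The immunoproteasome subunit gene Psmb10 fell, from 147 ± 4.59 to 109 ± 0.0896 CPM (-0.43, adjusted p = 1.51e-06). Psmb9 was not analysed here. The other riser was the aminopeptidase gene Npepps (0.36), and the other fallers were Erap1 (-0.42), the aminopeptidase that trims peptides in the endoplasmic reticulum, and the chaperone gene Calr (-0.29). Canx, the most abundant of the list at 1040 ± 126 CPM in controls, had -0.21 ± 0.10 and did not pass.

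Among class I heavy chains and class I-like molecules, 9 of the 25 genes found were tested, and 2 rose and none fell. Beside H2-D1 the riser was Hfe, a class I-like regulator of iron uptake, from 0.542 ± 0.118 to 1.66 ± 0.104 CPM (1.61 ± 0.32, adjusted p = 0.000409). Of the 7 that did not pass, 5 were H2 genes, including H2-T24 (0.14 ± 0.13) and H2-T22 (0.49 ± 0.21, adjusted p = 0.0515). The count of risers was 5 with library totals alone and under upper quartile scaling, 4 with the replicate block and with CPM above 1 in 2 libraries, and 1 with DESeq2, without control replicate 2 and without either mutant replicate.

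Of the class II list, 8 of the 16 genes found were tested. Of these 7 rose and 1 fell, with a median of 1.10, where 28.3% of all tested genes were higher and 29.2% lower. The 8 untested genes were too scarce, and genes scarce in controls, such as H2-Oa, were tested only because mutants expressed them, so the count leans upward. Lgmn, an endosomal protease that starts the breakdown of the invariant chain, went from 19.1 ± 1.73 to 67.4 ± 3.64 CPM (1.81 ± 0.09, adjusted p = 1.46e-11). Ctss, the cathepsin that completes it, went from 0.703 ± 0.109 to 2.57 ± 0.0545 CPM (1.87 ± 0.27). H2-Oa and H2-DMa, subunits of the molecules that control peptide exchange, had log2 fold changes of 1.91 ± 0.42 and 1.16 ± 0.26. The counts of H2-Oa were 8 and 5, against 25 and 19. The faller was Ctsb, a general lysosomal protease, from 268 ± 2.23 to 174 ± 0.521 CPM (-0.62). Lgmn, Ctss and Ctsb also serve lysosomal breakdown in general.

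**Figure D3:**
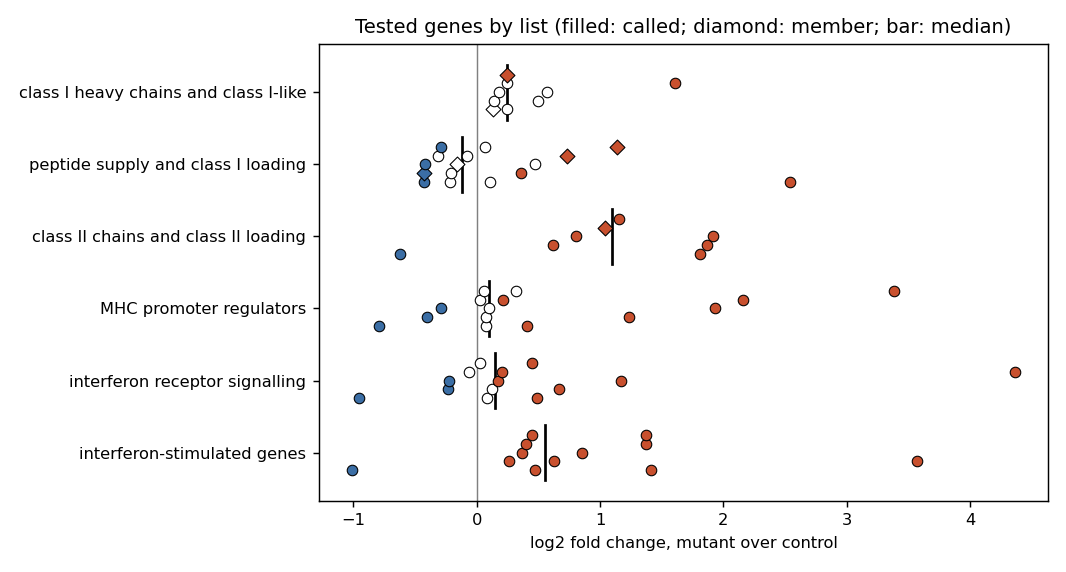
Log2 fold change of mutant over control for the tested genes of 6 lists; filled circles passed the test, diamonds are genes of the 9-gene set, and vertical bars are list medians. Tested genes of the class II list other than Ctsb (-0.62) sit to the right, and the list median is 1.10. That list leans upward because genes such as H2-Oa were tested only through their mutant counts. Peptide supply genes lie on both sides of 0 with a median of -0.12.

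Among 15 tested regulators of MHC promoters, 6 rose, 3 fell and 6 did not pass, with a median of 0.10. The risers included Rel (3.39 ± 0.50), an NF-kappaB subunit, and Irf8 (2.16 ± 0.20) and Irf1 (1.24 ± 0.28), interferon regulatory factors. All 3 were scarce: Rel had counts of 3 and 2 against 33 and 16, Irf8 32 and 31 against 152 and 98, and Irf1 27 and 15 against 54 and 34. Rel and another riser, Prdm1, were tested only because mutants expressed them, so this count too leans upward. Nfkb1 rose (0.41) from 116 ± 3.52 CPM. The fallers were Rela (-0.79), from 134 ± 7.72 to 77.4 ± 4.75 CPM, Rfxap (-0.40), a subunit of the RFX complex of the X box, and Irf2 (-0.29). Rfx5 (0.07), Rfxank (0.08) and the NF-Y genes Nfya, Nfyb and Nfyc were among those that did not pass, with Ezh2 (0.06), the most abundant of the list.

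Interferon gamma receptor genes changed in opposite directions. Ifngr1, the ligand-binding chain, fell from 91.0 ± 2.08 to 47.1 ± 1.66 CPM (-0.95 ± 0.06), and Ifngr2, the signalling chain, rose from 22.9 ± 2.17 to 51.4 ± 7.05 CPM (1.17 ± 0.10). Of 14 receptor and signalling genes 7 rose, 3 fell and 4 did not pass, with a median of 0.15. Socs1, the feedback inhibitor of the JAK kinases, had counts of 12 and 13 against 321 and 150 (4.37 ± 0.23, adjusted p = 5.95e-11). The phosphatase gene Ptpn6 (0.67) and Jak2 (0.49) rose, and Tyk2 (-0.23) and Ifnar2 (-0.22) fell. Jak1, Ptpn2, Stat2 and Irf9 did not pass. The risers numbered 4 with DESeq2, with no filter beyond 1 count and without control replicate 1, and the fallers 1 under upper quartile scaling, with library totals alone and without mutant replicate 2.

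Of 24 interferon-stimulated genes, 12 were tested and 12 were too scarce; 11 of those tested rose and 1 fell, with a median of 0.55, where 28.3% of all tested genes were higher. Isg15 and Oasl2 were tested only through their mutant counts, so the count leans upward. Oasl2 (3.57 ± 0.34) had counts of 7 and 4 against 77 and 42. The GTPase genes Irgm2 (1.37 ± 0.15) and Gbp7 (1.37 ± 0.14) rose, from 3.16 ± 0.0624 and 4.26 ± 0.119 CPM, as did Ifit2 (0.85 ± 0.08), from 18.6 ± 0.483 CPM. Ifi35, the most abundant, rose by 0.27 ± 0.06 on the log2 scale. The faller was Usp18, a brake on interferon receptor signalling, from 4.42 ± 0.280 to 2.24 ± 0.339 CPM (-1.01 ± 0.20). Of the 12 scarce genes, none above 16 counts in any library, Ifit1, Oas1a, Mx1, Mx2, Rsad2, Gbp3 and Xaf1 were higher in both mutant libraries than in both controls, without a test. Groups that do not overlap are common here, at 77.9% of all tested genes in either direction. No such share was computed for genes too scarce to test. Counts of Mx2 were 2 and 1, against 14 and 6, and those of Xaf1 were 2 and 2, against 16 and 6. Ifit3, Gbp2, Iigp1 and Cxcl10 overlapped between the groups, and Gbp6 was at 0.

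Markers of other cells were measured beside these genes, as sums of their counts in percent of the library total. These percents leave out the TMM factors, which were 0.951 and 0.956 in controls and 1.052 and 1.045 in mutants. Mutant sums therefore stand higher against controls here than they would on the TMM scale of the gene changes. Markers of B cells took 9.67e-05% and 0.000110% in controls and 0.000504% and 0.000412% in mutants. Cd79b, the only B cell marker tested, passed the abundance filter only through its mutant counts. It rose (10 and 15 counts, against 116 and 59, log2 fold change 2.95). The counts of Blnk were 10 and 5, against 2 and 0, and Cd79a, Ms4a1 and Ebf1 had at most 1 count in any library. Of 9 dendritic cell markers 6 had under 5 counts in every library, with Siglech at 0 and Itgax at most at 2. Their sum was 0.0101% and 0.0105% in controls and 0.00851% and 0.00874% in mutants, nearly all of it Zbtb46, which fell (-0.44), while Flt3, tested only through its mutant counts, rose (3.93) from 2 and 4 counts to 55 and 30. Macrophage markers took 0.0157% and 0.0167% in controls and 0.0158% and 0.0154% in mutants. Of 12 tested, Csf1r (1.28) and Adgre1 (0.54) rose, Marco (-2.97), Cd5l (-1.83) and the most abundant, Slc40a1 (-0.26), fell, and Vsig4 was at 0. Of 8 markers of T and NK cells, Klrb1c, Ncr1 and Gzma were at 0, and the most abundant was Nkg7 in controls and Cd3g in mutants. The sum of these markers was 0.000141% and 9.64e-05% in controls and 0.000246% and 0.000193% in mutants. Cd3g, also tested only through its mutant counts, rose (1.03).

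Other marker sums, also in percent of library totals without TMM factors, were higher in both mutant libraries. B2m, Tap1 and H2-Ab1 were higher in both on the TMM scale. Megakaryocyte markers were at 0.00665% and 0.00626% in controls and at 0.0217% and 0.0203% in mutants, with 6 of 7 higher; Itga2b was the most abundant in controls and Pf4 in mutants. Granulocyte and monocyte markers were at 0.00461% and 0.00509% against 0.00977% and 0.00945%. Of 9 tested, Lyz2, Prtn3, Cebpe and the most abundant, Mpo, rose and Elane fell, and Ly6c1 and Lyz1 were at 0. Hepatoblast markers, led by Afp, were at 0.0884% and 0.0878% against 0.134% and 0.133%, with 6 of 8 higher. Endothelial markers were at 0.0155% and 0.0154% against 0.0180% and 0.0177%; Tek, Pecam1, Tie1 and Kdr rose, and the most abundant, Egfl7, had -0.10 and did not pass. The part of any of these cells in the changes of antigen presentation genes was not tested.

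All tested genes but B2m lie on chromosome 17 in the MHC, and their neighbours were examined in annotation order. From Tapbp to H2-D1 there were 93 protein-coding genes, of which 85 were in the count table and 62 were tested. Of these 17 rose, 26 fell and 19 did not pass, so that 69.4% were called, against 57.5% of all tested genes; the median was -0.15. Tap1 and Psmb8 lie side by side, with the rising H2-DMa and the scarce H2-DMb1 and H2-DMb2 on one side and Tap2, H2-Ob and H2-Ab1 on the other. Within this short run, Tap2, which did not pass, stood between the rises of Psmb8 and H2-Ab1. Brd2, next to H2-DMa, fell (-0.26 ± 0.05, adjusted p = 0.000112), and so did Ring1 (-0.80 ± 0.07), the neighbour of H2-K1. Ring1 and Brd2, and above H2-T22, H2-T24, Rfx5, Rfxank, the NF-Y genes, Prdm1, Isg15, Blnk and the scarce interferon-stimulated genes, were named after their values were seen.

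**Figure D4:**
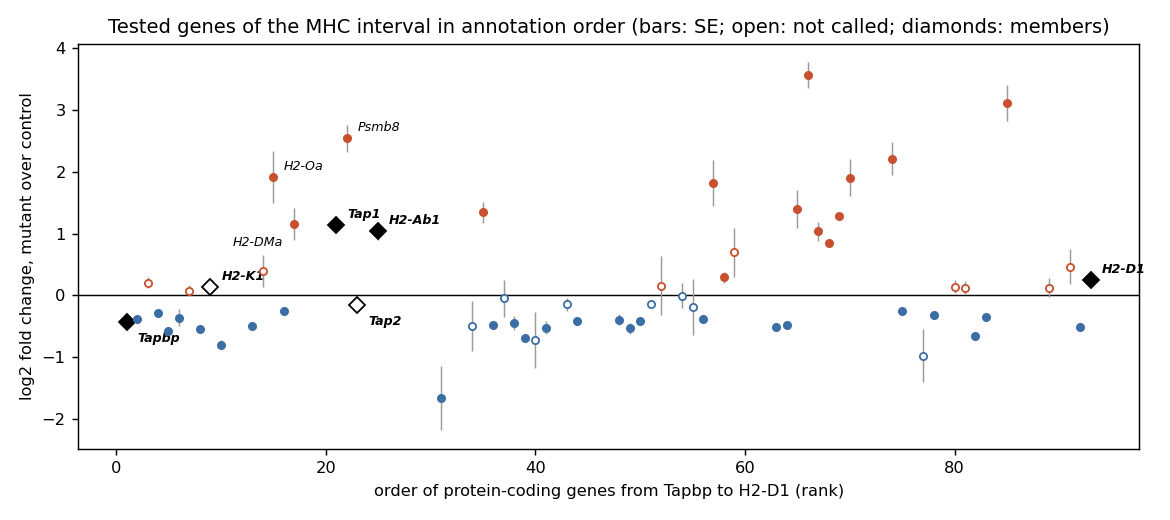
Log2 fold change of mutant over control, with SE, for the 62 tested genes of the MHC interval in annotation order; diamonds are genes of the 9-gene set and open symbols did not pass. Called rises and falls lie partly in runs along the interval, though grouping by position was not tested. No gene from Tapbp to Rxrb was called higher. Every tested gene from D17H6S56E-3 to Ly6g6f was called higher, among them Ng23 at 3.56, the steepest rise of the interval. Tap1 at 1.14 stands beside Psmb8 at 2.54 and Tap2 at -0.16.

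The genes whose levels over the 4 libraries were closest to those of B2m, by Euclidean distance of log2(CPM + 0.5), were Ddx26b (0.151), St3gal6 (0.157) and Glipr2 (0.202), of 11032 compared. For H2-K1 they were Tgds (0.0267), Oxr1 (0.0389) and Casd1 (0.0653); 70 genes lay within 0.2. For Cd74 they were Col5a3 (0), Tmem121 (0.0814) and Gng13 (0.0862), among 117 genes within 0.2, a likeness that 1 or 2 counts decide.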

How the data were processed

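The authors deposited whole-number counts per gene, taken as raw because library totals differ, and their test results (a log2 fold change, p-value and adjusted p-value for each gene), as the header names them. Bowtie, FastQC and edgeR with mm9 are named in the submitters' processing notes; the counter, strand and multiple mapping are not given in the sources used here. The columns named WT were read as the like-numbered controls. Of 35939 rows, 12 with NA were left out. The members and lists were chosen with earlier results of these data known.

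The main test was run in edgeR 4.0.16 (R 4.3.3, limma 3.58.1; low counts removed by filterByExpr, TMM factors 0.951 to 1.05, glmQLFit with robust, two-sided quasi-likelihood test, Benjamini-Hochberg over 13140 genes, threshold 0.05). Each SE was derived from the size of the log2 fold change divided by the root of its F statistic. The common coefficient of variation was 4.81%, so small changes pass. Chi-square per gene between replicates was 5.76 in controls and 3.67 in mutants, above counting noise, so no library was a duplicate. A symbol with several rows was read from its most abundant row. On simulated counts for the 13140 genes of this comparison, the test recovered 45 of 67 changes of 1.5-fold, 57 of 67 at 2-fold and 64 of 66 at 4-fold. No other genes were changed in the simulation, a far smaller share than the 57.5% called in the data. The recovery rates may therefore differ from those in the data. Named genes were the members, up to 4 called genes per direction and list with at least 1 CPM in the higher group, all members of a count of 5 or fewer, the most abundant gene of each list, and the nearest 3 genes by level. Exon lengths, gene order and transcripts came from GENCODE M21 (GRCm38), matched by gene ID. Alternatives were RLE, upper quartile and total count scaling, 2 other filters, DESeq2 1.42.0, a replicate block, summed class I rows and each library left out in turn.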

Additional observations from a re-analysis of the deposited data

How the results depend on the processing

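B2m, Tap1, H2-Ab1 and Tapbp kept their calls and Tap2 its lack of one under all 11 alternatives; none of the 7 tested genes changed direction, and Nlrc5 and Cd74 were not fitted. The members called higher ran from 3 to 5. With library totals alone, 2553 genes were lower and 5112 higher, and the class I list had 5 risers and the interferon receptor list 1 faller; upper quartile scaling gave the same 5 and 1. Class I risers numbered 4 with CPM above 1 in 2 libraries and 1 with DESeq2, and from 1 to 2 with a library left out. Interferon receptor risers numbered 4 with DESeq2 and with no filter beyond 1 count, and from 4 to 6 with a library left out, with 1 to 3 fallers. The summed class I rows had 0.16 with no filter beyond 1 count (adjusted p = 0.0543), 0.19 with DESeq2 (adjusted p = 0.0551) and 0.13 to 0.24 with a library left out. Why these moved was not tested, beyond the smaller number of libraries. With 1 library left in a group, it was assumed to vary like the other group.

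Replicate numbers are shared by label only; same-numbered deviations correlated at 0.18 across genes, over 2 pairs. The replicate block gave 4135 higher and 4267 lower genes and 4 class I risers, and kept the 4 and 1 calls of the set. Depth limits Cd74, Nlrc5 and H2-Aa, which rest on single counts.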
